A study of Mus musculus with 2 samples.

Results

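Chemokine receptors are G protein-coupled receptors that lead leukocytes along gradients of chemokines, the small secreted proteins made by tumor, stromal and immune cells. The receptors described here are Ccr1, Ccr2, Ccr4, Ccr7, Ccr8, Cxcr3, Cxcr4, Cxcr6 and Cx3cr1, which were picked by symbol as 9 of the 32285 genes counted in each cell. They were followed through the leukocytes of MC38 tumors, a mouse colon cancer line grown under the skin of both flanks of C57BL/6 mice. In the MWA group, the tumor of the right flank was treated by microwave ablation (MWA) at a volume of about 300 mm3, with an isotype control antibody per the study's methods. The MWA plus TIGIT group had the same ablation and an anti-TIGIT antibody against an inhibitory receptor of T and NK cells, injected into the peritoneum at intervals of 3 days from day 1 (3 injections by the labels, 4 by the study's methods). The left tumor, which was not ablated, was taken on day 8 and its CD45+ cells were isolated for droplet sequencing of the 3′ ends of transcripts, in which each molecule carries a unique molecular identifier (UMI). Each group was 1 library, and the number of mice behind a library and their age are not in the labels. There was no untreated library, and both groups share the ablation.

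Receptors for inflammatory chemokines, such as Ccr1, Ccr2 and Cx3cr1, bring monocytes and other myeloid cells into tissue. Cxcr3 and Cxcr6 are best known on activated T cells in inflamed tissue and tumors, Ccr4 and Ccr8 on type 2 helper T cells and regulatory T cells (Tregs), Ccr7 on naive lymphocytes and mature dendritic cells (DCs) that travel to lymph nodes, and Cxcr4 on leukocytes of most kinds.

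After filters, 9231 cells with 55990460 UMIs were left in the MWA library and 9127 cells with 66504472 UMIs in the MWA plus TIGIT library, with medians of 5280 and 6247 UMIs per cell. A UMI of Ptprc, which encodes CD45, was found in 84.4% and 88.0% of them. Only 37 cell barcodes occurred in both libraries. Clusters were named from markers, and the names end in -like because the cell annotation of the authors was not used here. The 9 receptors were kept out of the marker lists, and all chemokine and chemokine receptor genes out of the features that built the clusters. Cells of unnamed clusters, 458 and 493, were left out. The 5 T cell markers summed to 22.4 and 13.1 CPM (the usual count-per-million scale, here of a gene's UMIs relative to all UMIs summed over its class) in TAM-like cells (tumor-associated macrophages), against 4236 and 4522 CPM in CD4 T-like cells. The 7 TAM markers, which include the abundant C1q genes, summed to 719 and 753 CPM in Gzma-low effector CD8-like cells, against 37530 and 42872 CPM in TAM-like cells. The 8 markers of tumor and stroma summed to 85.3 and 56.8 CPM in NK-like cells and 4.13 and 4.73 CPM in TAM-like cells.

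Because a group was 1 library, no test between the groups was possible. All intervals are exact 95% intervals, and the limit beside a count of 0 is that of 3 counts. Both cover counting error only. The levels across classes and the ratios between the libraries are a description, since the receptors were chosen with results of these data known.

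In the mouse genome (GRCm38), 6 of the 9 receptor genes lie on chromosome 9, as do 8 of 14 other chemokine receptor genes. Cx3cr1 (119901616 to 120069879) and Ccr8 (120092114 to 120094906) are 22.2 kb apart on opposite strands, and an exon of Cx3cr1 overlaps one of Gm33858 on the other strand. Further along, Cxcr6 (123806475 to 123811760), Ccr1 (123962124 to 123968692) and Ccr2 (124101950 to 124113557) follow each other with Xcr1 and Ccr3 between them. Ccr4 lies farther off, from 114490316 to 114504916. Ccr7 is on chromosome 11 (99144196 to 99155077), Cxcr4 on chromosome 1 (128588199 to 128592293) and Cxcr3 on chromosome X (101731535 to 101734269). A stretch of the Ccr2 transcripts is not unique in the annotation. A read inside that stretch cannot be given to Ccr2 alone, and its part in the Ccr2 counts was not tested. Ccr1 and Ccr3 share an identical run of 47 bases.

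The promoters of 8 of the 9 receptors were found in RefSeq (GRCm38.p6), each as 250 bases before and 50 bases after the start set there. That start can differ from the gene end given above. For Ccr4 the whole window lies inside the gene as placed above, and for Ccr2 most of it does. The Cxcr4 promoter is shown beside those of Ccr2 and Cxcr6 because Cxcr4 was counted in almost all classes and its promoter is rich in CpG, written in capitals.
Cxcr4 (chr1:128592250-128592549, minus strand): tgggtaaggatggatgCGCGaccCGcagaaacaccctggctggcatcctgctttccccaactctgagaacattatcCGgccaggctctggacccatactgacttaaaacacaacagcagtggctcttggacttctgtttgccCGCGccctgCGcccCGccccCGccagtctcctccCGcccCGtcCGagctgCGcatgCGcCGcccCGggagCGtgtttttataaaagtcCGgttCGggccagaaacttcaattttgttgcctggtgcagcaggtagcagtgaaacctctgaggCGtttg
Ccr2 (chr9:124101933-124102232, plus strand): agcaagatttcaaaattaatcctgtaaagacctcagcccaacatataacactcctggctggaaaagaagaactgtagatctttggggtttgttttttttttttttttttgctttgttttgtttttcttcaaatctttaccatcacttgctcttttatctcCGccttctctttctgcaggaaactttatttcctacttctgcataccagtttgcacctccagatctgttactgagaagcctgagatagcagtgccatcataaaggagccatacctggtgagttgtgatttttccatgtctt
Cxcr6 (chr9:123806227-123806526, plus strand): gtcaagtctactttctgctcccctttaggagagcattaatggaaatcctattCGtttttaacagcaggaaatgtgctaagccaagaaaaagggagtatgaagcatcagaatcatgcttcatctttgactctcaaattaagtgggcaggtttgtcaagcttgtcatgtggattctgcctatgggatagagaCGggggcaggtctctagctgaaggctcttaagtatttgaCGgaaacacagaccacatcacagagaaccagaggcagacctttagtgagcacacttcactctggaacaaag
Cxcr4 had 20 CpG in these 300 bases, Ccr2 had 1 and Cxcr6 had 3. The median over all 32851 promoters was 7, and the other 5 receptors had between 1 and 5.

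The promoters of Cxcr3 and Ccr4 are shown because they held matches to letters bound by ETS, RUNX or AP-1 factors, which are common at T cell genes. Capitals mark matches on either strand.
Cxcr3 (chrX:101734098-101734397, minus strand): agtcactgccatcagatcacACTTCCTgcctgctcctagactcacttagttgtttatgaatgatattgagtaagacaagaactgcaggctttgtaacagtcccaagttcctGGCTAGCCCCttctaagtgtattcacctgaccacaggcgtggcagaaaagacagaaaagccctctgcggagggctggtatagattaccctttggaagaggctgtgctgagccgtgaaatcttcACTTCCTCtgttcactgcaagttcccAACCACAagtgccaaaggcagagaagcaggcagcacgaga
Ccr4 (chr9:114496495-114496794, minus strand): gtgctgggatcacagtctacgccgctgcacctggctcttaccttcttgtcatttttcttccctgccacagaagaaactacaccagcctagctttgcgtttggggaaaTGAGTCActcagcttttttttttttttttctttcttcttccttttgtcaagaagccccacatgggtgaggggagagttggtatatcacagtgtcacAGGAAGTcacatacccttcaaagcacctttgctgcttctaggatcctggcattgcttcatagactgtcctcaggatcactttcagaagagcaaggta
In Cxcr3 the capitals mark 2 matches to the ETS letters AGGAAGT, 1 to the RUNX letters TGTGGTT, 1 to GAGGAAG (PU.1) and 1 to a loose NF-kappaB motif, of which the PU.1 match overlaps an ETS match. In Ccr4 they mark 1 ETS match and 1 match to the AP-1 letters TGANTCA. Of all promoters, 9.35% held the ETS letters, 5.27% the RUNX letters, 13.6% those of PU.1, 50.8% the NF-kappaB motif and 7.81% those of AP-1. Of the other motifs searched, the E-box CAGCTG (16.3% of promoters) was found only in Cx3cr1, and the NF-kappaB motif also in Ccr1, Ccr8 and Cx3cr1. GGTGTGA (T-box, 3.98%), GGGTGTG (KLF, 7.95%), TTCNNNGAA (STAT, 8.30%), TTGCNNAA (C/EBP, 10.8%) and an interferon response motif (3.44%) were in none of the 8. These are matches of letters in a short window and not measured binding sites.

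Each receptor had its own spread over the classes. Over 20 classes, Pearson's r of log2(CPM + 1) between the libraries ran from 0.75 (Ccr8) to 0.96 (Ccr2). In 2 DC classes of few cells, outside these 20, Ccr2 differed more. It stood at 117 and 379 CPM in cDC2-like cells and at 130 and 60.9 CPM in cDC1-like cells. The map of receptor levels shows Cxcr6, Cxcr3, Ccr4 and Ccr8 on the lymphoid side, Cx3cr1 and Ccr1 on the myeloid side, Ccr2 and Cxcr4 on both, and Ccr7 in mature DC-like, B-like and stem CD8-like cells. T and NK-like classes held 98.8% and 98.9% of the Cxcr6 UMIs of named classes and 93.8% and 96.1% of those of Cxcr3. Monocyte-like and TAM-like classes held 97.9% of the Cx3cr1 UMIs in both libraries, and 87.6% and 85.5% of those of Ccr2.

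**Figure D1:**
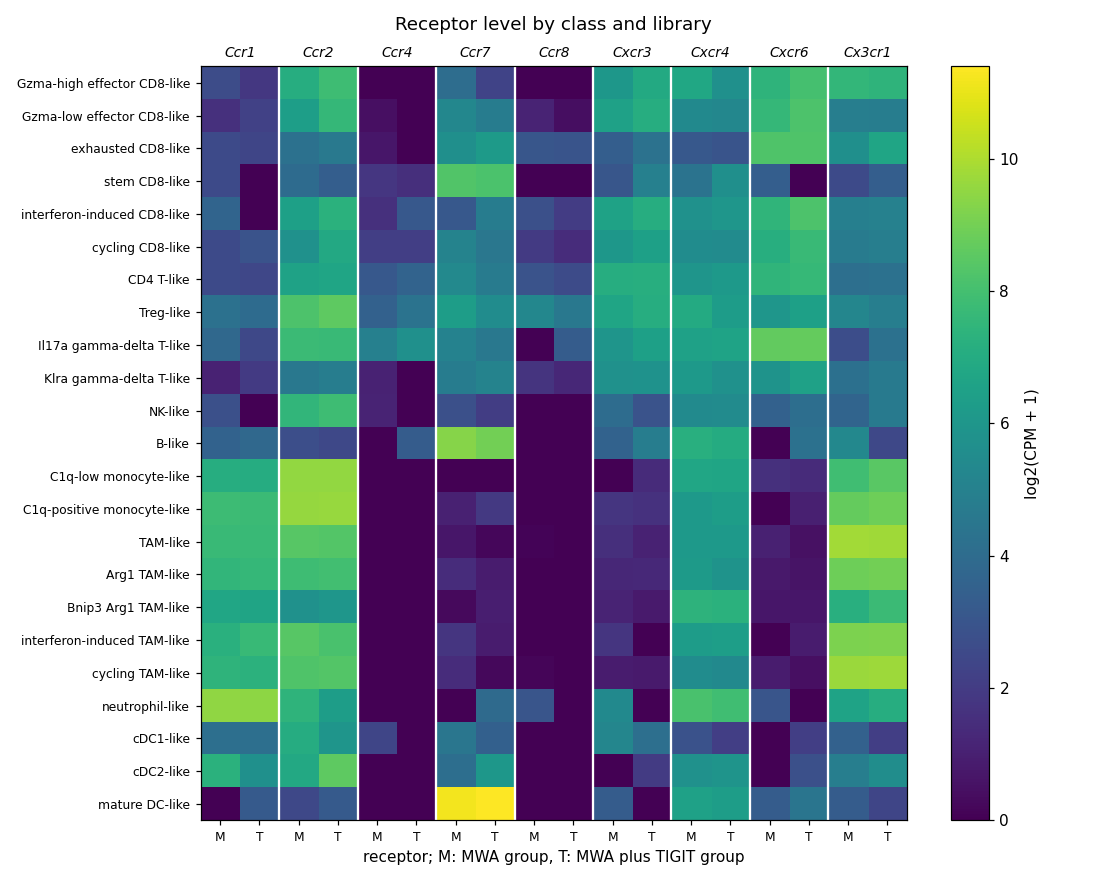
Level of each receptor in 23 classes, as the logarithm to base 2 of CPM plus 1 (color), in the MWA library (M) and the MWA plus TIGIT library (T). Ccr7 was highest in mature DC-like cells, Cx3cr1 in TAM-like and cycling TAM-like cells and Ccr2 in the monocyte-like classes, and Ccr4 and Ccr8 were near 0 in the monocyte-like and TAM-like classes. Colors in neutrophil-like and DC-like cells can rest on 1 or 2 UMIs.

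Ccr2, the receptor for Ccl2 that lets monocytes leave the bone marrow, was highest in the monocyte-like classes. C1q-positive monocyte-like cells held 776 CPM (749 to 805) in the MWA library and 796 CPM (773 to 819) in the MWA plus TIGIT library. C1q-low monocyte-like cells, led by Hp, Chil3 and Plac8, held 750 and 758 CPM. These 2 classes could not be ordered, since their intervals overlapped in both libraries. By markers the C1q-positive class lay between monocyte-like and TAM-like cells. Its TAM markers summed to 14696 and 15797 CPM and its monocyte markers to 1982 and 2246 CPM. In the C1q-low class these sums were 3126 and 2781 CPM, and 9511 and 11603 CPM. TAM-like cells held 343 and 321 CPM, Arg1 TAM-like cells 233 and 245 CPM, and Bnip3 Arg1 TAM-like cells, led by stress and hypoxia genes such as Hspb1, Bnip3 and Ndrg1, 52.9 and 61.8 CPM. Ccr2 was thus lowest in the TAM-like class with the strongest stress genes, in either library.

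Cx3cr1, the receptor for the membrane-bound chemokine Cx3cl1 and a marker of resident and maturing macrophages, was higher in TAM-like than in monocyte-like cells, the reverse of Ccr2. TAM-like cells held 901 CPM (884 to 919) and 883 CPM (868 to 899), and cycling TAM-like cells 818 and 835 CPM. Arg1 TAM-like cells held 463 and 496 CPM, C1q-positive monocyte-like cells 417 and 475 CPM, and C1q-low monocyte-like cells 241 and 351 CPM. Bnip3 Arg1 TAM-like cells were the lowest of the TAM-like classes, as for Ccr2, with 146 and 215 CPM. After thinning each cell to 1000 UMIs, Cx3cr1 was seen in 57.9% (55.1 to 60.6) and 55.2% (52.4 to 58.0) of TAM-like cells, and in 31.8% and 35.4% of C1q-positive monocyte-like cells (95.3% and 96.9%, and 71.6% and 76.7%, before thinning). In B-like cells, which should lack the gene, it was 2.50% of 80 cells and 0 of 61 cells, which allows a share of cells with a UMI of up to 4.92%.

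Cells with UMIs of both Ccr2 and Cx3cr1 were common. Among thinned C1q-positive monocyte-like cells, Ccr2 was seen in 59.7% (52.5 to 66.6) and 59.1% (52.8 to 65.3) of the cells with a Cx3cr1 UMI. The share was 51.1% (46.2 to 55.9) and 46.6% (42.0 to 51.3) of the cells without one. In the TAM-like class it was 29.3% against 23.1% in the MWA library and 26.1% against 22.6% in the MWA plus TIGIT library. C1q-low monocyte-like cells went the other way, with 30.4% against 48.3% and 46.4% against 51.9%, and Arg1 TAM-like cells had 23.99% against 16.5% and 16.6% against 18.03%. Cycling and interferon-induced TAM-like cells were not examined on their own. Within the single classes examined, the intervals were apart only in C1q-positive monocyte-like cells of the MWA plus TIGIT library. Over all TAM-like cells, which pool classes of unlike levels, they were apart in both libraries, with 27.4% (25.1 to 29.7) against 16.3% (14.8 to 17.96) and 23.8% (21.7 to 26.0) against 17.1% (15.5 to 18.7).

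Ccr1, which binds Ccl3, Ccl5 and related chemokines, was highest in neutrophil-like cells, with 724 CPM (592 to 878) and 703 CPM (571 to 857). These cells were few, 107 and 90, and held medians of 978 and 1164 UMIs. C1q-positive monocyte-like cells held 221 and 214 CPM and TAM-like cells 209 and 210 CPM. Bnip3 Arg1 TAM-like cells were again the lowest of the TAM-like classes, with 106 and 98.4 CPM. T and NK-like classes held between 0 and 18.3 CPM, so that Ccr1 stayed low in every lymphoid class but was counted in all monocyte-like, TAM-like and neutrophil-like classes.

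Cxcr4, the receptor for Cxcl12 that holds leukocytes in the bone marrow and in hypoxic tissue, was the most widely spread. It was above 20 CPM in both libraries in 18 of the 20 classes with at least 50 cells in each library, all but exhausted CD8-like (7.83 and 6.83 CPM) and stem CD8-like cells. Neutrophil-like cells held 279 CPM (199 to 379) and 237 CPM (163 to 333), and B-like cells 145 and 126 CPM. Among macrophages, Bnip3 Arg1 TAM-like cells had the highest level, 163 CPM (152 to 175) and 155 CPM (145 to 165), where TAM-like cells had 71.5 and 68.7 CPM and cycling TAM-like cells 44.9 and 41.7 CPM. Cxcr4 was therefore highest in the TAM-like class in which Ccr1, Ccr2 and Cx3cr1 were lowest. Over all TAM-like cells, thinned, a Cxcr4 UMI was found in 5.73% and 6.61% of cells with a Cx3cr1 UMI and in 9.93% and 9.49% of cells without one. Within the TAM-like class alone the shares were 6.17% against 6.83% in the MWA library and 7.80% against 5.77% in the MWA plus TIGIT library. They were 5.41% against 7.06% and 5.65% against 7.29% in Arg1 TAM-like cells, and 10.2% against 17.2% and 15.9% against 17.0% in Bnip3 Arg1 TAM-like cells. The intervals overlapped in each of these classes.

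**Figure D2:**
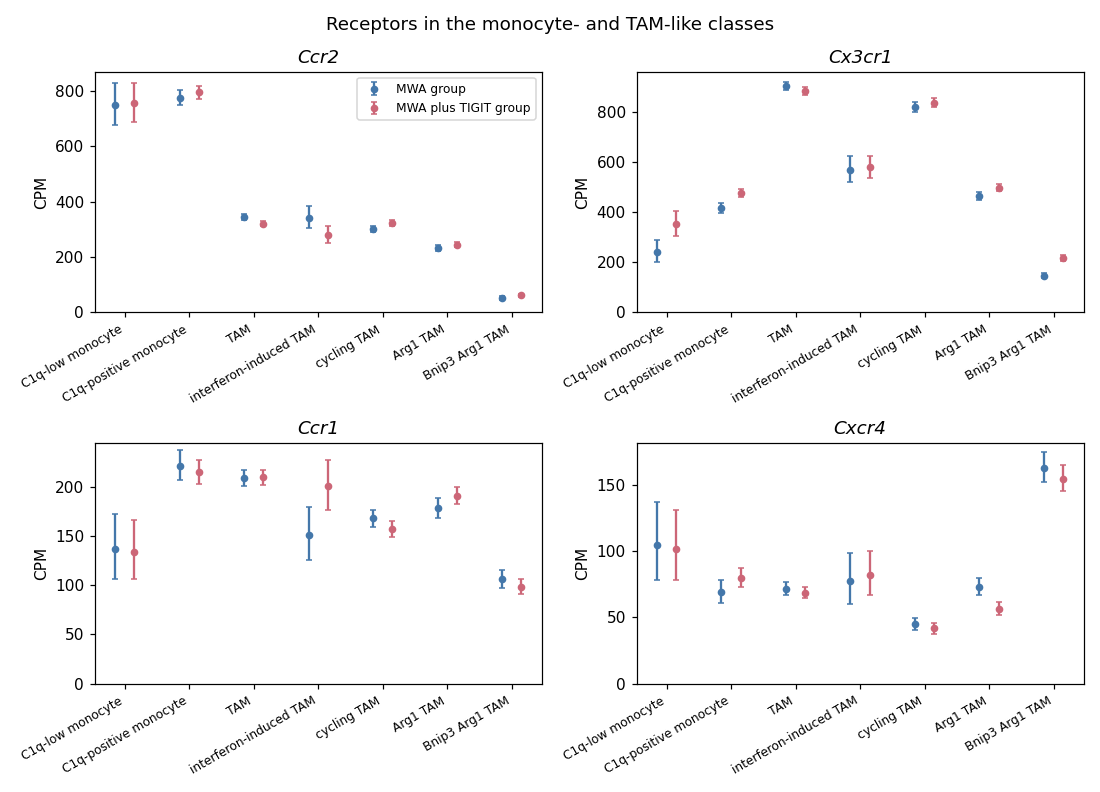
CPM of Ccr2, Cx3cr1, Ccr1 and Cxcr4 in the monocyte-like and TAM-like classes of the MWA library and the MWA plus TIGIT library, 1 library each, with exact 95% Poisson intervals as bars. Ccr2 declined from about 750 CPM in the monocyte-like classes to 52.9 and 61.8 CPM in Bnip3 Arg1 TAM-like cells, where Cxcr4 was highest (163 and 155 CPM).

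Cxcr6, the receptor for Cxcl16 on tissue-resident and effector T cells, was highest in Il17a gamma-delta T-like cells, with 399 CPM (337 to 468) and 417 CPM (359 to 481). Exhausted CD8-like cells came next with 305 CPM (279 to 332) and 306 CPM (275 to 339). In the MWA plus TIGIT library they did not stand apart from Gzma-low effector (291 CPM), interferon-induced (291 CPM) or Gzma-high effector CD8-like cells (261 CPM). Stem CD8-like cells, which keep Tcf7 and Lef1, had almost none, 4 UMIs in 127 cells of the MWA library and 0 in 147 cells of the MWA plus TIGIT library, where up to 5.72 CPM would be allowed. CD4 T-like cells held 172 and 200 CPM and Treg-like cells 63.1 and 87.1 CPM. The order from stem to exhausted CD8-like cells is plotted with the other receptors of CD8-like cells.

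Cxcr3, the receptor for the interferon-induced ligands Cxcl9 and Cxcl10, was highest in CD4 T-like cells, with 134 CPM (122 to 148) and 141 CPM (127 to 156). In the MWA plus TIGIT library this did not stand apart from Gzma-low effector CD8-like (137 CPM), interferon-induced CD8-like (135 CPM) or Treg-like cells (135 CPM). Exhausted CD8-like cells held 9.63 and 18.8 CPM, the lowest of the CD8-like classes but for stem CD8-like cells of the MWA library (7.31 and 30.5 CPM, from 3 and 16 UMIs). So exhausted CD8-like cells had among the highest Cxcr6 levels and among the lowest Cxcr3 levels of T cells. cDC1-like cells, the DCs that cross-present antigen, held 36.2 and 16.9 CPM from 17 and 5 UMIs.

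Ccr7, which guides cells to lymph nodes along Ccl19 and Ccl21, was at 2350 CPM (2152 to 2561) and 2689 CPM (2486 to 2905) in mature DC-like cells, only 37 and 33 cells. B-like cells held 635 and 496 CPM and stem CD8-like cells 314 CPM (263 to 374) and 286 CPM (242 to 335). Thinned to 1000 UMIs, 77.8% and 93.9% of mature DC-like, 41.2% and 36.1% of B-like and 32.3% and 26.0% of stem CD8-like cells had a Ccr7 UMI. The other CD8-like classes held 3.97 to 73.4 CPM, with exhausted CD8-like cells the highest of them at 50.6 and 73.4 CPM. In TAM-like cells it was 1 of 1287 cells and 0 of 1277, which allows a share of cells with a UMI of up to 0.235%.

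Ccr4 and Ccr8 were rare, with 75 and 112 UMIs of Ccr4 and 123 and 83 UMIs of Ccr8 in the libraries. Ccr4, the receptor for Ccl17 and Ccl22, was highest in Il17a gamma-delta T-like cells, with 29.8 CPM (14.9 to 53.4) and 51.3 CPM (32.5 to 76.9). Treg-like cells held 10.6 and 19.1 CPM of Ccr4. Ccr8, the receptor for Ccl1 that marks Tregs of tumors, was highest in Treg-like cells, with 37.8 CPM (29.1 to 48.2) and 22.9 CPM (16.5 to 30.9). Exhausted CD8-like cells held 7.23 and 6.83 CPM of Ccr8. Neither receptor had a UMI in monocyte-like cells of either library.

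Over 40 points, 20 classes in each of 2 libraries that share cells and depth within a library, the pattern of Cxcr3 and Cxcr6 was alike with Pearson's r = 0.86 of log2(CPM + 1). Ccr1 and Cx3cr1 came next among pairs of receptors (r = 0.76), and Ccr7 ran most against Cx3cr1 (r = −0.78). Outside the chemokine system, the genes nearest in pattern were Cd14 to Ccr1 (r = 0.95), Chmp2a to Ccr2 (0.88), Cd4 to Ccr4 (0.83), Trib2 to Ccr7 (0.88) and Sdf4 to Ccr8 (0.90). They were Bcl11b to Cxcr3 (0.94), Cyth1 to Cxcr4 (0.77), Lta to Cxcr6 (0.92) and Lair1 to Cx3cr1 (0.92). Pycard and Surf4 for Ccr2, Neb and Tnfrsf4 for Ccr8, and Gstp3 and Ubash3a for Cxcr6 were the next in place.

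The next question was whether the receptors differed between the groups inside each class. A ratio is the CPM of the MWA plus TIGIT library over that of the MWA library on the log2 scale, and it was counted as past the fold where it reached 1.5-fold either way in a gene with at least 20 UMIs over both libraries. Over 20 classes, 27 of 106 receptor and class pairs were past the fold, 18 higher in the MWA plus TIGIT library and 9 lower, which is 25.5% of the pairs. Of all gene and class pairs that passed the same filter, 14.0% were past it. These shares are a description, since the receptors were chosen with results of these data known. The genes were not matched to the receptors for UMI count.

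In CD8-like cells Ccr2, Cxcr3 and Cxcr6 were higher in the MWA plus TIGIT library. Over all CD8-like cells, 1897 and 2029, Ccr2 stood at 58.2 CPM (53.4 to 63.4) and 132 CPM (125 to 139), Cxcr3 at 60.3 CPM (55.4 to 65.5) and 96.0 CPM (89.9 to 102), and Cxcr6 at 181 CPM (172 to 190) and 241 CPM (232 to 251). The log2 ratios were 1.18 (1.04 to 1.33) for Ccr2, 0.67 (0.52 to 0.82) for Cxcr3 and 0.42 (0.33 to 0.51) for Cxcr6. Cxcr4 was level at 39.7 and 39.9 CPM, and Ccr7 had a ratio of −0.18 (−0.38 to 0.02). Of the 9 receptors, 3 were past the fold, Ccr2 and Cxcr3 as higher and Ccr8 as lower from 29 and 18 UMIs, where 9.12% of all genes were. The median over all genes was a ratio of 0.13.

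**Figure D3:**
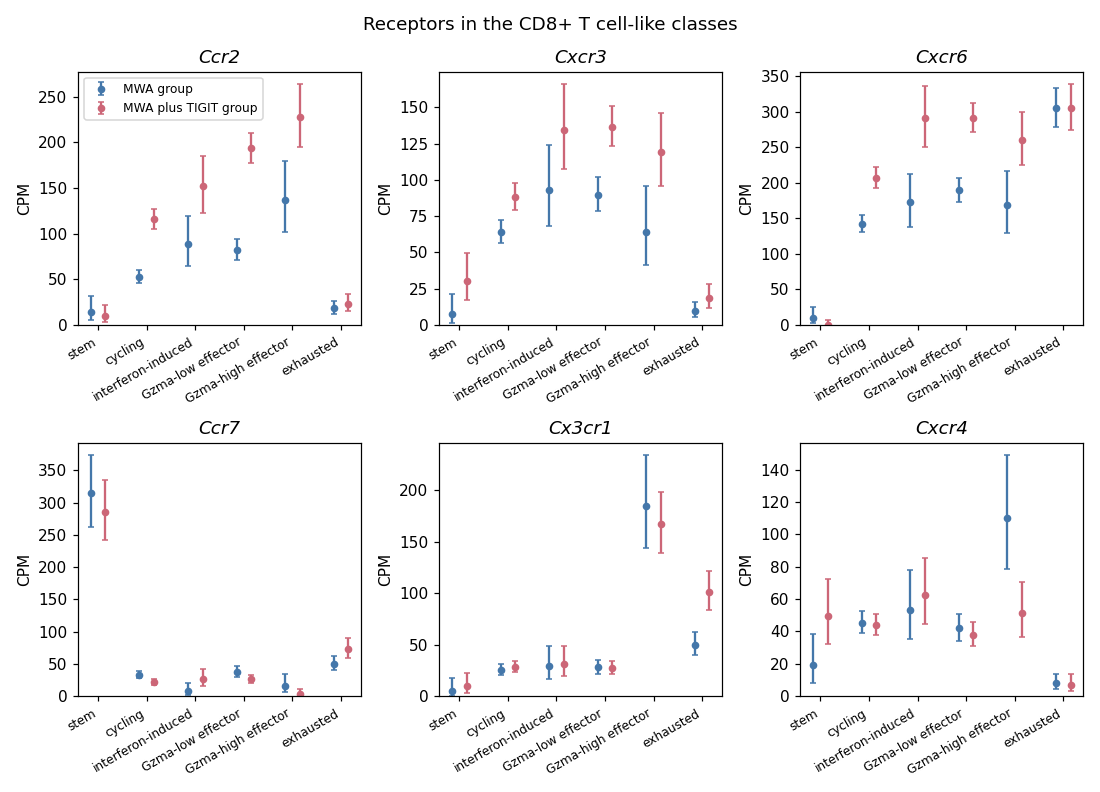
CPM of 6 receptors in the CD8-like classes of the MWA library and the MWA plus TIGIT library, 1 library each, with exact 95% Poisson intervals as bars. In Gzma-low effector cells Ccr2 stood at 82.4 and 193 CPM and Cxcr6 at 189 and 291 CPM, whereas Cxcr6 in exhausted cells was 305 and 306 CPM.

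The difference in Ccr2 was found in 4 of the 6 CD8-like classes. Ccr2 stood at 137 and 228 CPM in Gzma-high effector cells, at 82.4 and 193 CPM in Gzma-low effector cells, at 89.1 and 152 CPM in interferon-induced cells and at 52.9 and 116 CPM in cycling cells. The largest of these log2 ratios was 1.23 (1.00 to 1.47), in Gzma-low effector cells. Over both libraries the interferon-induced class held 101 CPM of Cd4, against 187 CPM in CD4 T-like cells. Its Treg markers summed to 912 and 881 CPM, against 108 and 93.7 CPM in Gzma-low effector and 562 and 568 CPM in exhausted cells. The part of CD4 T cells in the ratios of Ccr2, Cxcr3, Cxcr6 and Ccr7 in the interferon-induced class was not tested. In exhausted CD8-like cells Ccr2 was low in both libraries, 18.1 CPM (12.2 to 25.8) and 23.0 CPM (15.2 to 33.5), and in stem CD8-like cells lower still (14.6 and 9.53 CPM). B-like cells, which should lack Ccr2, held 5.57 and 4.51 CPM. Thinned, Ccr2 was seen in 6.29% (5.23 to 7.48) and 13.7% (12.2 to 15.2) of all CD8-like cells (19.0% and 35.3% before thinning).

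Cxcr6 followed the same classes as Ccr2. Its ratio was 0.63 (0.21 to 1.06) in Gzma-high effector, 0.62 (0.46 to 0.79) in Gzma-low effector, 0.76 (0.38 to 1.14) in interferon-induced and 0.54 (0.38 to 0.70) in cycling CD8-like cells. In exhausted CD8-like cells it was 0.00 (−0.20 to 0.20). Thinned, Cxcr6 was seen in 15.4% (13.8 to 17.1) and 22.8% (21.0 to 24.7) of all CD8-like cells (45.5% and 54.6% before thinning).

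Cxcr3 was higher in the MWA plus TIGIT library in all 5 CD8-like classes with enough UMIs, by 0.89 (0.23 to 1.60) in Gzma-high effector, 0.61 (0.37 to 0.85) in Gzma-low effector, 0.53 (0.00 to 1.08) in interferon-induced, 0.46 (0.22 to 0.70) in cycling and 0.96 (−0.03 to 1.99) in exhausted cells. The last of these rests on 16 and 22 UMIs. Cells with a Ccr2 UMI also held Cxcr3 more often than cells without one, in 11% (5.998 to 18.1) against 6.88% (5.74 to 8.16) of thinned CD8-like cells of the MWA library and in 16.1% (11.9 to 21.0) against 9% (7.70 to 10.4) in the MWA plus TIGIT library. In the latter library the intervals were apart, but these shares pool CD8-like classes of unlike levels. Within Gzma-low effector cells they were 16% against 8.91% in the MWA library and 17.5% against 11.4% in the MWA plus TIGIT library. Within Gzma-high effector cells they were 7.14% against 4.08% and 18.9% against 8.26%. The intervals overlapped in each of these classes.

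Cx3cr1, which in CD8 T cells marks differentiated killer cells, was, among CD8-like classes, highest in Gzma-high effector cells, with 185 CPM (144 to 234) and 167 CPM (139 to 198), a class led by Gzma, Klrg1 and Zeb2. Among the CD8-like classes with enough UMIs, it differed most between the libraries in exhausted cells. It stood there at 50 CPM (39.8 to 62.0) and 102 CPM (84.1 to 122), a ratio of 1.02 (0.61 to 1.45). Cxcr4 went the other way in Gzma-high effector cells, with 110 CPM (78.8 to 149) and 51.6 CPM (36.7 to 70.5), a ratio of −1.09 (−1.76 to −0.42). The 7 NK markers summed to 8123 and 4842 CPM in Gzma-high effector cells. They include Gzma, by which this class was named, and Klre1, which is also among its leading genes. The part of the NK markers in the ratios of Cxcr4, Ccr2, Cxcr3 and Cxcr6 in this class was not tested. In stem CD8-like cells Cxcr4 stood at 19.5 and 49.5 CPM from 8 and 26 UMIs. Ccr7 was lower in the MWA plus TIGIT library in cycling CD8-like cells, with a ratio of −0.60 (−1.01 to −0.20), and it was 1.75 (0.13 to 3.78) in interferon-induced cells from 4 and 17 UMIs.

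Read against all genes, the receptors past the fold were 4 of 5 with enough UMIs in Gzma-high effector CD8-like cells, where 21.8% of all genes were past it, 3 of 6 in Gzma-low effector cells (16%), 3 of 6 in interferon-induced cells (20.6%), 2 of 8 in cycling cells (11.8%), 2 of 7 in exhausted cells (18.3%) and 1 of 2 in stem CD8-like cells (22.4%). Gzma-high effector cells were 162 and 275, and exhausted cells 281 and 181, so that the mixture of classes within all CD8-like cells also differed.

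Trav16, a T cell receptor segment with near-identical copies, was also found in more CD8-like cells of the MWA plus TIGIT library. A Trav16 UMI was found in 28 of 1897 CD8-like cells of the MWA library (1.48%) and in 437 of 2029 of the MWA plus TIGIT library (21.5%). In the MWA plus TIGIT library the cells with a Trav16 UMI held 270 CPM of Ccr2, 153 CPM of Cxcr3 and 358 CPM of Cxcr6, and the cells without one 100 CPM, 82.6 CPM and 214 CPM. In the MWA library the 28 cells with a Trav16 UMI held 51.3 CPM of Ccr2 and the others 58.4 CPM. For Cxcr3 these were 51.3 and 60.5 CPM, and for Cxcr6 199 and 180 CPM. The values of the 28 cells rest on 9, 9 and 35 UMIs.

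**Figure D4:**
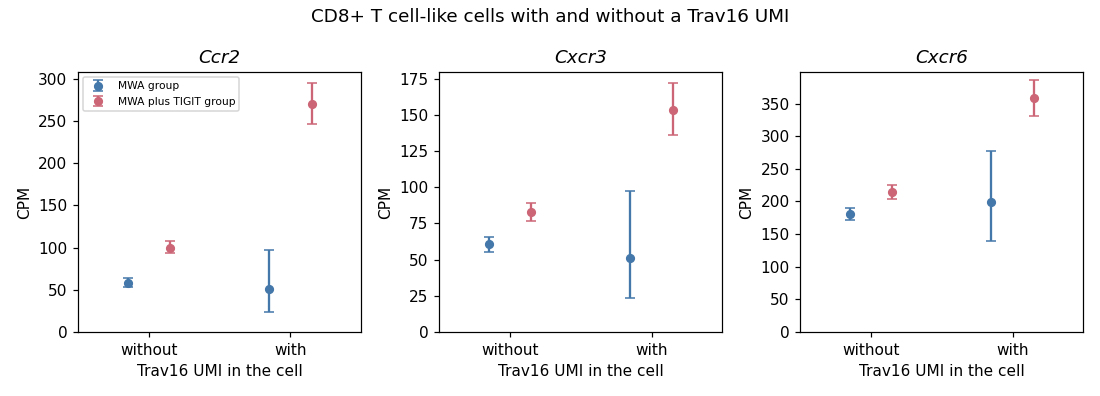
CPM of Ccr2, Cxcr3 and Cxcr6 in CD8-like cells without and with a Trav16 UMI, in the MWA library and the MWA plus TIGIT library, with exact 95% Poisson intervals as bars. Cells without a Trav16 UMI held 58.4 and 100 CPM of Ccr2, and the 437 cells with one in the MWA plus TIGIT library 270 CPM.

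When cells with a Trav16 UMI were set aside, the ratios over all CD8-like cells were 0.78 (0.62 to 0.94) for Ccr2, 0.45 (0.29 to 0.62) for Cxcr3 and 0.25 (0.15 to 0.35) for Cxcr6, and only Ccr2 was past the fold. Those of Gzma-low effector cells were 0.88 (0.62 to 1.14), 0.37 (0.10 to 0.64) and 0.40 (0.22 to 0.58). Ccr7 had a ratio of −0.11 (−0.58 to 0.35) in those cells, against −0.52 (−0.98 to −0.06) with all of them. A cell without a Trav16 UMI may still carry the segment, because most transcripts of a cell are not caught.

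In Treg-like cells, 712 and 608, the receptors differed in both directions. Ccr2 stood at 295 CPM (270 to 322) and 374 CPM (347 to 403), the highest of the lymphoid classes in both libraries, with a ratio of 0.34 (0.17 to 0.51). Cxcr3 had a ratio of 0.41 (0.13 to 0.70) and Cxcr6 of 0.46 (0.10 to 0.83). Lower in the MWA plus TIGIT library were Ccr7 with 79.6 and 45.2 CPM (−0.82, −1.23 to −0.41), Cxcr4 with 123 and 77.3 CPM (−0.67, −0.99 to −0.36) and Ccr8 with 37.8 and 22.9 CPM (−0.72, −1.32 to −0.14). Ccr4 was higher, from 18 and 35 UMIs, with an interval that included 0 (0.84, −0.02 to 1.75).

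In all, 4 of 9 receptors were past the fold in Treg-like cells, where 13.4% of all genes were. The difference in Ccr7 depended on how the class was made. With Treg-like cells chosen by UMIs of defining genes in place of clusters, its ratio was 0.028. The TAM markers summed to 1072 and 896 CPM in Treg-like cells. Ccr7 was at most 2.39 CPM in any TAM-like class, and the part of RNA from these cells in the result was not tested.

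**Figure D5:**
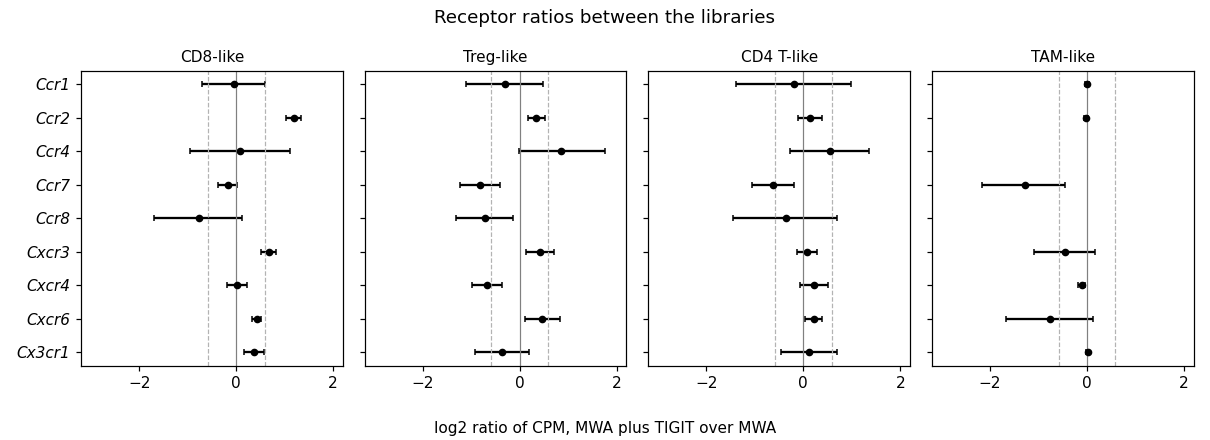
Log2 ratio of CPM, MWA plus TIGIT library over MWA library, for each receptor with at least 20 UMIs in all CD8-like, Treg-like, CD4 T-like and all TAM-like cells, with exact 95% intervals as bars and 1.5-fold as dashed lines. Ccr2 in CD8-like cells lies at 1.18, and Ccr1, Ccr2 and Cx3cr1 in TAM-like cells lie at 0.00, −0.01 and 0.01.

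In CD4 T-like cells, 931 and 743, the receptors were close in the libraries. Ccr2 stood at 94.9 and 104 CPM, Cxcr3 at 134 and 141 CPM and Cxcr6 at 172 and 200 CPM, with ratios of 0.14, 0.07 and 0.21 (0.04 to 0.39). Ccr7 was the 1 receptor of 9 past the fold, where 11.6% of all genes were, with 40.1 and 25.9 CPM and a ratio of −0.63 (−1.07 to −0.20). By defining genes it was 0.27. Within this class Ccr2 and Cxcr6 were found together. In thinned cells with a Ccr2 UMI, Cxcr6 was found in 29.6% (20 to 40.8) and 37.5% (24.9 to 51.5), and in cells without one in 13.3% (11.1 to 15.8) and 14.9% (12.3 to 17.8), so that the intervals were apart in both libraries. Cells with and without a Cxcr3 UMI had overlapping shares of Cxcr6, with 12.6% against 15.1% and 14.4% against 16.9%.

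Il17a gamma-delta T-like cells, 120 and 133, were high for Cxcr6 and Ccr2 in both libraries, with Ccr2 at 214 and 207 CPM. The receptor past the fold was Ccr4, 1 of 6, from 11 and 23 UMIs, where 20.9% of all genes were. NK-like cells held 178 CPM (150 to 208) and 229 CPM (193 to 270) of Ccr2, and Cx3cr1 was the 1 of 3 past the fold, from 10 and 15 UMIs, where 19.5% of all genes were. Cxcr6 had 9 and 10 UMIs in NK-like cells.

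In monocytes and macrophages the abundant receptors were nearly level between the groups. Over all TAM-like cells, 3687 and 3771, Ccr1 stood at 174 CPM (170 to 179) and 175 CPM (171 to 179), Ccr2 at 265 CPM (260 to 271) and 263 CPM (258 to 268) and Cx3cr1 at 664 CPM (655 to 673) and 671 CPM (663 to 679). Their log2 ratios were 0.00 (−0.05 to 0.05), −0.01 (−0.05 to 0.03) and 0.01 (−0.01 to 0.04). Cxcr4 had a ratio of −0.11 (−0.19 to −0.03). Of 7 receptors with enough UMIs, 2 were past the fold, where 5.99% of all genes were. These were Ccr7 (1.12 and 0.461 CPM) and Cxcr6 (0.820 and 0.485 CPM) and the part of free RNA from T cells in them was not tested.

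Single TAM-like classes and, for Cx3cr1, both monocyte-like classes departed from this. In C1q-positive monocyte-like cells Cx3cr1 stood at 417 and 475 CPM, a ratio of 0.19 (0.10 to 0.28). Cx3cr1 in Bnip3 Arg1 TAM-like cells stood at 146 CPM (135 to 157) and 215 CPM (204 to 227), a ratio of 0.56 (0.43 to 0.69), and in C1q-low monocyte-like cells at 241 CPM (200 to 288) and 351 CPM (305 to 402), a ratio of 0.54 (0.22 to 0.88). Cxcr4 in Arg1 TAM-like cells stood at 73.1 and 56.3 CPM (−0.38, −0.55 to −0.20), and Ccr1 in interferon-induced TAM-like cells at 150 and 201 CPM (0.42, 0.10 to 0.74). None of these reached 1.5-fold. Past the fold were 0 of 4 receptors in C1q-low monocyte-like cells (20.1% of all genes), 1 of 6 in C1q-positive monocyte-like cells (9.94%), Ccr7 from 4 and 16 UMIs, and 1 of 4 in neutrophil-like cells (35.8%). The last was Ccr2 from 24 and 11 UMIs, in a class whose T cell markers summed to 822 and 122 CPM and whose neutrophil markers summed to 76830 and 124985 CPM. The part of these in the result was not tested.

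Of the 19 ligands of these receptors listed, 18 were in the table. The myeloid cells supplied most of them. Ccl2, Ccl7 and Ccl12, ligands of Ccr2, were highest in interferon-induced TAM-like cells, with 1615 and 1305 CPM of Ccl2. Cxcl10, a ligand of Cxcr3, was also highest there, at 1606 and 1365 CPM, with 528 and 474 CPM in interferon-induced CD8-like cells. Cxcl9 stood at 1295 and 798 CPM in that class and at 739 and 1346 CPM in cDC1-like cells. Cxcl16, the ligand of Cxcr6, was highest in mature DC-like cells (684 and 1001 CPM), which also held the Ccr4 ligands Ccl17 (634 and 1405 CPM) and Ccl22 (906 and 1880 CPM).

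Other ligands were highest in neutrophils, lymphocytes or other TAM classes. Ccl3, a ligand of Ccr1, was highest in neutrophil-like cells (3524 and 2878 CPM), the class with the most Ccr1. Ccl5 reached 29568 and 29353 CPM in Gzma-high effector CD8-like cells. Ccl1, which like Ccl8 is a ligand of Ccr8, was highest in exhausted CD8-like cells, with 180 and 810 CPM, a ratio of 2.17 (1.98 to 2.36). Ccl6 was highest in neutrophil-like (794 and 940 CPM), Ccl9 in C1q-positive monocyte-like (343 and 283 CPM) and Arg1 TAM-like cells (306 and 320 CPM) and Ccl8 in TAM-like cells (289 and 444 CPM). The ligands that stroma and endothelium make were hardly counted among CD45+ cells, with 3 UMIs of Cxcl12 (ligand of Cxcr4), 43 of Cx3cl1, 1 of Ccl19 and 0 of Ccl21a over both libraries.

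Past the fold between the groups were 5 of 12 ligands with enough UMIs in all CD8-like cells (3 higher), where 9.12% of all genes were. They were 5 of 11 in Treg-like cells (0 higher, 13.4% of all genes) and 2 of 13 in all TAM-like cells (1 higher, 5.99%). The 2 in TAM-like cells were Ccl8, at 173 and 268 CPM, and Ccl1, which was lower, at 1.43 and 0.146 CPM from 47 and 6 UMIs. The part of free RNA from other cells in Ccl1 was not tested. The 5 in Treg-like cells were Ccl1, Ccl2, Ccl7, Ccl12 and Cxcl10, 4 of which were highest in interferon-induced TAM-like cells. In Treg-like cells the TAM markers summed to 1072 and 896 CPM. The part of RNA from TAM-like cells in these ligand ratios was not tested. Of 22 genes for signaling and desensitization of these receptors, 1 of 20 with enough UMIs was past the fold in all CD8-like cells (9.12% of all genes). It was 0 of 19 in Treg-like cells (13.4%) and 1 of 22 in all TAM-like cells (5.99%). The genes past it were Pik3cg, a kinase that chemokine receptors switch on, at 26.1 and 42.6 CPM in CD8-like cells (0.71, 0.48 to 0.94), and Rgs16 in TAM-like cells at 1.46 and 0.753 CPM.

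Of other chemokine receptors, Ccrl2 (1748 and 1371 CPM) and Cxcr2 (258 and 438 CPM) were highest in neutrophil-like cells, Xcr1 in cDC1-like (535 and 652 CPM), Cxcr5 in B-like (78.0 and 81.2 CPM) and Ccr6 in Il17a gamma-delta T-like cells (43.4 and 35.7 CPM). Each of these is a known marker of the cell type in which it was found, other than Ccrl2, which is spread more widely.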

How the data were processed

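CD45+ cells of the left tumors, which were not ablated, were sequenced, 1 library in each group. The authors deposited whole UMI counts per gene and barcode, not normalized. The submitters' processing notes name Cell Ranger 6.1.1 and mm10, and the matrix header names cellranger 4.0.0. Barcodes numbered 10217 and 10190. Those with over 10% mitochondrial UMIs (179 and 276) or under 200 genes (1 and 1) were removed, as were called doublets (806 and 786, by similarity to simulated doublets, of which 73.4% and 72.0% of added ones were found). Cells were integrated and clustered in R 4.3.3 with Seurat 5.3.0 (2000 variable and 3000 integration features, 40 principal components, resolutions of 0.1, 1 and 0.5 for all cells, T and NK cells, and CD8 T and myeloid cells) and named by the list with most markers among 10 leading genes and, where lists tied, the largest mean log2 fold over the other clusters (TAM-like cells and 1 cycling TAM-like cluster held no marker of their list among the 10). Rules for cycling (400 CPM), C1q (1000 CPM), low UMIs and clusters of 1 library followed a look at the clusters.

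UMIs were summed per class and library in Python 3.11.15 (numpy 2.4.6, scipy 1.17.1, pandas 2.3.3), with Poisson intervals for CPM, conditional binomial intervals for ratios and Clopper-Pearson intervals for shares of cells thinned to 1000 UMIs. Cells are not replicates, so no test was run. The ratio script was tested on simulated data. The receptors, marker lists and lists of ligands, other receptors and signaling genes were chosen with earlier results of these data known, and the motifs after the receptors' promoters had been seen. Other genes were named by rule as the 3 most alike in log2(CPM + 1) for each receptor, with at least 50 CPM in a class in both libraries. Alternatives were cells of at most 5000 UMIs, 5% mitochondrial UMIs, kept doublets, no integration, chemokine genes kept as features, other resolutions, classes from defining genes, TMM factors (edgeR 4.0.16), CD8 T cells without a Trav16 UMI, other UMI minimums, 2-fold, other thinning and, chosen after the data had been seen, barcodes of both libraries left out. Gene positions are those of GENCODE on GRCm38, and promoter windows those of RefSeq. Some genes of these lists are not reported here.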

Additional observations from a re-analysis of the deposited data

Results flagged for a closer look

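Ccr7 and Cxcr4 differed in direction between classes, each with an interval on its own side of 0. The log2 ratio of Ccr7, MWA plus TIGIT library over MWA library, was −0.82 in Treg-like, −0.63 in CD4 T-like and −0.60 in cycling CD8-like cells, and 1.75 in interferon-induced CD8-like cells, the last from 4 and 17 UMIs. For Cxcr4 it was −1.09 in Gzma-high effector CD8-like and −0.67 in Treg-like cells, and 1.35 in stem CD8-like cells, from 8 and 26 UMIs there. The differences between these classes were not tested, since each group was 1 library.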

How the results depend on the processing

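Of 525 values of 53 ratios under alternatives, 485 stayed within the interval of the value reported, 36 moved beyond it, and 4 ratios past the fold changed sign. All 4 came with classes made from defining genes in place of clusters, where the log2 ratio of Ccr7 was 0.27 in CD4 T-like, 0.028 in Treg-like and 0.080 in all TAM-like cells, and that of Ccr2 was 0.072 in neutrophil-like cells. The cause was not tested. Ccr2 in all CD8-like cells was 1.34 under that alternative. Without cells that held a Trav16 UMI, Ccr2, Cxcr3 and Cxcr6 were 0.78, 0.45 and 0.25, and with TMM factors Cxcr6 was 0.30. In all TAM-like cells, Ccr2 was 0.069 with thinned cells, and Cx3cr1 was 0.15 with cells of at most 5000 UMIs and −0.011 with TMM factors. The class with the highest level was the same for 8 of 9 receptors without integration (not for Cxcr4) and for 8 and 7 of 9 with defining genes (not for Ccr4, nor for Cxcr3 in the MWA plus TIGIT library).

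Receptors past the fold in all CD8-like cells were 1 without cells that held a Trav16 UMI and 1 at 2-fold. In Treg-like cells they were 2 at other resolutions, 2 with defining genes and 0 at 2-fold. In all TAM-like cells they were 0 with at most 5000 UMIs, and 1 with defining genes, with at least 50 UMIs and at 2-fold. Shares depended on depth. At 2000 UMIs and without thinning, Ccr2 was found in 11.4% and 19.0% of CD8-like cells of the MWA library and in 23.1% and 35.3% of the MWA plus TIGIT library, and Cxcr6 in 26.3% and 45.5%, and 36.3% and 54.6%. Ccr4 and Ccr8, with at most 123 UMIs in a library, and cDC-like and mature DC-like cells, under 50 in a library, allow no firm ratio. No paired analysis was possible because each group was 1 library. Nothing here covers variation between mice, sorts or libraries.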
